A study of Mus musculus with 12 samples.

Results

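Ionotropic glutamate receptors are ion channels that glutamate opens at excitatory synapses. NMDA receptors need the obligatory subunit *Grin1* together with subunits such as *Grin2a* or *Grin2b*, and let calcium into the cell. AMPA receptors, of which *Gria3* encodes a subunit, carry the fast current. Calcium that enters through NMDA receptors activates calcium/calmodulin-dependent kinase II, whose beta subunit is encoded by *Camk2b*. *Baiap3* encodes a relative of the Munc13 proteins that acts in the trafficking of dense-core vesicles. In the developing forebrain *Grin2b* is expressed before birth, and *Grin2a* rises after it.

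These 6 genes, *Grin1*, *Grin2a*, *Grin2b*, *Gria3*, *Camk2b* and *Baiap3*, were taken by their symbols from the 770 genes of a panel of cancer pathway genes, on which all 6 are present. They were chosen by their signal in these same samples, with earlier results known in which *Baiap3* and *Grin2b* were among the genes with the largest difference between *RBS* lesions and control eyes. Levels and differences of the 6 genes are therefore a description without p-values. Where it is counted how many of them passed a threshold, in any of the 3 comparisons, the same values chose the genes, and nothing is read from the count. No other glutamate receptor gene of a list of 22 is on the panel.

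RNA was counted with color-coded probes on the nCounter panel in 4 control eyes, 3 Shh-MBs and 5 *RBS* lesions, each from a different animal. *RBS* lesions are eyes of E18.5 embryos of the genotype *Rax-creERT2::Ctnnb1(ex3)Fl/+SmoM2Fl/+*, in which tamoxifen at E8.5 switched on stabilized beta-catenin and an active form of Smo in cells with *Rax* promoter activity, mainly retinal precursors. Control eyes are E18.5 eyes of *Ctnnb1(ex3)Fl/+SmoM2Fl/+* embryos, which have the same floxed alleles but lack Cre. The paper describes tamoxifen as injected into pregnant females, of which all embryos were collected. It does not state separately whether these control eyes were exposed to tamoxifen. Shh-MBs are hindbrain tumors of 14-day-old *hGFAP-cre::SmoM2Fl/+* mice, where the *hGFAP* promoter drives Cre and active Smo is expressed without stabilized beta-catenin. Shh-MBs differ from both kinds of eyes in tissue, age and genotype at once, and these cannot be told apart. The sex of the animals is not in the labels, and *Gria3* lies on the X chromosome (*Uty*, a gene of the Y chromosome on the panel, is given beside it).

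Each value is a linear normalized signal, and a gene without signal above background has the lowest value of its sample, which is between 1 and 1.64. Depth was between 335348 and 716960 counts above background per sample, with the lowest in RBS 1. Among Shh-MBs, Shh-MB 2 and Shh-MB 3 were closer to each other (Pearson *r* 0.985 across genes) than to Shh-MB 1 (0.965 and 0.967). Genes that mark the tissues were few on the panel. *Fgf15*, a gene of retinal progenitors and the only 1 of 22 retina and eye markers present, averaged 968 ± 129 (SD, *n* = 4) in control eyes against 133 ± 33.0 (SD, *n* = 5) in *RBS* lesions, and 2 of 3 Shh-MBs had their lowest value for it. *Zic2*, a gene of cerebellar granule cells, was 1042 ± 110 (SD, *n* = 3) in Shh-MBs, 287 ± 55.5 (SD, *n* = 4) in control eyes and 315 ± 57.1 (SD, *n* = 5) in *RBS* lesions. *Etv1*, the other granule cell marker of 10 that is present, overlapped between all groups.

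Promoter sequences are shown for *Grin1* and *Baiap3*, an NMDA receptor gene and the one of the 6 with the widest gap between *RBS* lesions and the other samples. They are the genes of the 6 with an entry in the RefSeq promoter table (GRCm38.p6) whose window lies outside the gene. The entry of *Camk2b*, the third one matched, lies within the annotated span of that gene and is not printed. Each sequence holds the 250 bases before the transcription start, 5′ to 3′ on the minus strand, at chr2:25319188-25319437 for *Grin1* and chr17:25256365-25256614 for *Baiap3*. Capitals mark matches on either strand to a Gli motif (GACCACCCA), a Tcf/Lef motif (CTTTGA), the core of a cAMP response element (TGACG), an E-box (CACGTG) or a GC box (GGGCGG).

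Grin1: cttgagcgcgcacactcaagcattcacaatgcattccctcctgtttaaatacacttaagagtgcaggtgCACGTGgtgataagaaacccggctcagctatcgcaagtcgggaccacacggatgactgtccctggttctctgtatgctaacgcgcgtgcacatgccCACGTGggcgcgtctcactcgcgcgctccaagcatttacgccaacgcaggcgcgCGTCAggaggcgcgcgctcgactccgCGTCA
Baiap3: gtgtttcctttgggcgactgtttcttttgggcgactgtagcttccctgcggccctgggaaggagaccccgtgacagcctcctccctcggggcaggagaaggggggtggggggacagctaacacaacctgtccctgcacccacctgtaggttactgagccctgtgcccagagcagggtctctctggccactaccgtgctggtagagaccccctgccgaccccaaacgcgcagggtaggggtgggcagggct

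The *Grin1* sequence holds 2 E-boxes, at bases -181 to -176 and -85 to -80 from the start, and 2 cores of a cAMP response element. The *Baiap3* sequence holds none of these letters. Of 32851 promoters in the table, 6.02% hold the E-box, 17.8% the response element core and 32.7% the GC box. The Gli and Tcf/Lef motifs, which 0.225% and 13.8% of promoters hold, are in neither window. A match is a run of letters and was not tested for binding.

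*Grin2b* separated the 3 groups, with the highest signal in *RBS* lesions. It was 310.7, 261.6, 242.8, 327.9 and 294.1 in RBS 1 to 5. In control eyes 1 to 4 it was 42.8, 34.8, 29.0 and 18.8. Shh-MBs 1 to 3 had 57.4, 69.9 and 49.0 and lay between both kinds of eyes, without overlap on either side. The mean was 287 ± 34.9 (SD, *n* = 5) in *RBS* lesions, which is 9.16-fold that of control eyes (31.4 ± 10.1, SD, *n* = 4) and 4.89-fold that of Shh-MBs (58.7 ± 10.5, SD, *n* = 3). The gap below *RBS* lesions was wide, since the lowest of them had 3.48 times the signal of the highest Shh-MB. Between Shh-MBs and control eyes it was narrow, with 1.15-fold between the closest samples.

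*Grin1* was higher in *RBS* lesions and in Shh-MBs than in control eyes, and *RBS* lesions and Shh-MBs overlapped. RBS 1 to 5 had 28.4, 42.2, 70.01, 55.5 and 47.1. Shh-MBs 1 to 3 had 66.3, 24.9 and 26.1, so that Shh-MB 1 lay among the highest *RBS* lesions and the other two below all of them. Control eyes 1 to 4 had 13.4, 9.49, 9.90 and 4.25, which corresponds to between 4.08 and 11.5 counts above background. The log2 difference was 2.30 (standard error 0.328) between *RBS* lesions and control eyes and 1.90 (standard error 0.464) between Shh-MBs and control eyes. Between *RBS* lesions and Shh-MBs it was 0.40 (standard error 0.387), and it was 0.85 without Shh-MB 1.

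*Grin2a* was near the lowest value throughout, and the 3 groups overlapped. Control eyes had 2.17 to 7.57, *RBS* lesions 1.64 to 11.8 and Shh-MBs 2.33 to 8.10, and RBS 1 was at the lowest value of its sample. The highest signal, in RBS 3, corresponds to 13.4 counts above background, and no difference between groups was detectable at this depth. The log2 difference between *RBS* lesions and control eyes was 0.10 (standard error 0.503), and its sign changed in 5 of 17 alternative settings.

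*Gria3* was the only one of the 6 genes with its highest mean in Shh-MBs, at 357 ± 59.3 (SD, *n* = 3). Shh-MBs 1 to 3 had 421.3, 305.0 and 343.3. RBS 1 to 5 had 162.9, 204.1, 249.8, 221.8 and 239.2, all below the lowest Shh-MB. Control eyes 1 to 4 had 102.6, 104.8, 77.9 and 124.0 and lay below every other sample. The mean of *RBS* lesions (216 ± 34.2, SD, *n* = 5) was 2.11-fold that of control eyes (102 ± 18.9, SD, *n* = 4), and the mean of Shh-MBs was 1.65-fold that of *RBS* lesions. *Uty* had a signal of 180.5 to 201 in the 3 Shh-MBs, 291 and 264 in RBS 1 and 3, and 240.4 in control 3, and of at most 2.39 in the other 6 eyes. RBS 1 and 3 had the lowest and the highest signal of *Gria3* among *RBS* lesions, and control 3 the lowest among control eyes. The part of sex in the level of *Gria3* was not tested.

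*Camk2b* was highest in *RBS* lesions, with 381.2, 337.7, 363.5, 441.2 and 390.1 in RBS 1 to 5. Control eyes 1 to 4 had 124.9, 137.2, 111.9 and 99.0. The means of 383 ± 38.3 (SD, *n* = 5) and 118 ± 16.5 (SD, *n* = 4) are 3.24-fold apart, and the lowest *RBS* lesion had 2.46 times the signal of the highest control eye. Shh-MBs did not form a single level. Shh-MB 1 had 374.3 and lay among *RBS* lesions, while Shh-MB 2 and 3 had 180.4 and 139.7, the latter 1.02 times the highest control eye. The log2 difference between *RBS* lesions and Shh-MBs was 0.85 (standard error 0.292), and 1.26 without Shh-MB 1. Between Shh-MBs and control eyes it was 0.84 (standard error 0.335), and 0.43 without Shh-MB 1.

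*Baiap3* was near the lowest value outside *RBS* lesions. RBS 1 to 5 had 59.5, 56.8, 51.5, 78.4 and 57.2, a mean of 60.7 ± 10.3 (SD, *n* = 5). In control eyes it was at the lowest value in 3 of 4 samples and 4.05 in control 1. Of the Shh-MBs, Shh-MB 2 was at the lowest value, and Shh-MB 1 and 3 had 3.63 and 2.33. The lowest *RBS* lesion had 12.7 times the signal of the highest control eye and 14.2 times that of the highest Shh-MB. A log2 difference of this gene depends on the value added before taking logs. For *RBS* lesions against control eyes it was 4.58 (standard error 0.282) with 1 added and 3.28 with 5 added.

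**Figure D1:**
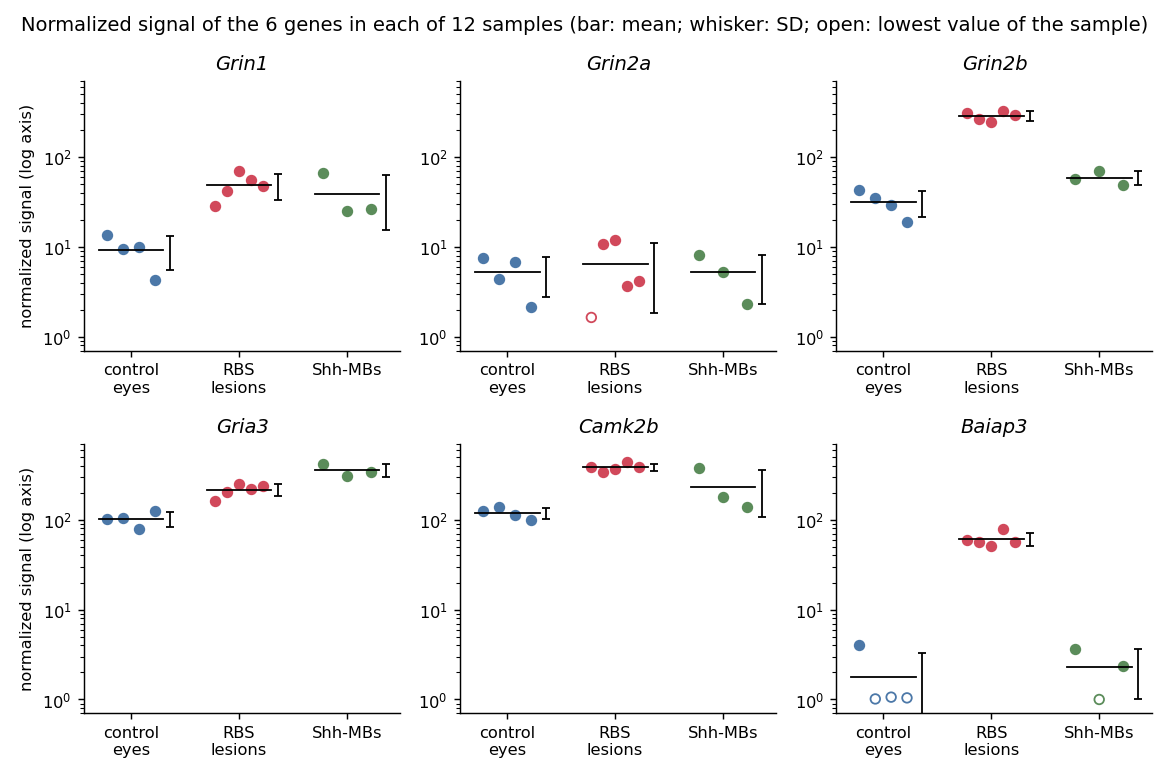
Normalized signal (log axis) of *Grin1*, *Grin2a*, *Grin2b*, *Gria3*, *Camk2b* and *Baiap3* in each of 4 control eyes, 5 *RBS* lesions and 3 Shh-MBs, in replicate order from left to right. Horizontal bars are means, whiskers are SD (for *Baiap3* in control eyes reaching below the axis), and open points are at the lowest value of their sample. *Grin2b* and *Baiap3* are highest in all *RBS* lesions, *Gria3* in all Shh-MBs, and *Grin2a* overlaps between the groups.

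The samples within a group did not rank alike for the 6 genes. Among *RBS* lesions, RBS 4 had the highest signal of *Grin2b*, *Camk2b* and *Baiap3*. RBS 3 had the highest signal of *Grin1*, *Grin2a* and *Gria3* and the lowest of *Grin2b* and *Baiap3*. RBS 1, the sample with the lowest depth, was lowest for *Grin1*, *Grin2a* and *Gria3*. Among control eyes, control 4 was lowest for *Grin1*, *Grin2a*, *Grin2b* and *Camk2b* and highest for *Gria3*. Shh-MB 1 was the highest tumor for each of the 6 genes except *Grin2b*. Relative to its mean, *Grin2b* had an SD of 12.2% within *RBS* lesions and *Grin1* one of 31.8%.

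In *RBS* lesions against control eyes, each of the 6 log2 differences was above 0, between 0.10 for *Grin2a* and 4.58 for *Baiap3*, with a median of 2.00. The median of all 770 genes was 0.17. Ordered by log2 difference from the largest rise down, *Baiap3* had rank 1 of 770, *Grin2b* rank 4, *Grin1* rank 15, *Camk2b* rank 38, *Gria3* rank 103 and *Grin2a* rank 422. The ranks of genes near the lowest value depend on the value added before taking logs. *Baiap3* had rank 3 with 5 added and rank 33 with values under 20 set to 20, where *Grin2b* had ranks 4 and 2 and *Grin1* ranks 21 and 59. All genes except *Grin2a*, 5 of 6, passed the threshold as higher (adjusted *p* under 0.05, limma), which 33.0% of all genes did. Of all genes 51.2% passed in either direction and 18.2% as lower, and none of the 6 was lower. In the same 5 genes the groups did not overlap, as in 43.4% of all genes. Over all genes 254 were higher and 140 lower, which became 177 and 177 with each sample's values shifted to a common median, and the same 5 of the 6 genes passed as higher then.

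Against Shh-MBs, the 6 genes did not move together. *Grin2b*, *Baiap3* and *Camk2b* passed the threshold as higher in *RBS* lesions, as 48.1% of all genes did, and *Gria3* as lower, as 12.7% did, together 4 of 6 genes beside 60.8% of all genes. The groups did not overlap for *Grin2b*, *Baiap3* and *Gria3*, 3 of 6 genes beside 59.9% of all genes. The median log2 difference of the 6 genes was 0.62, close to the 0.53 of all genes. With median centring it was -0.22, all genes then had a median of -0.32, and 181 genes were higher and 319 lower where 370 and 98 had been. *Grin2b* (1.43), *Baiap3* (3.44) and *Gria3* (-1.57) kept their direction with this centring, the difference of *Camk2b* was 0.0017, and *Grin1* changed sign to -0.45.

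In Shh-MBs against control eyes, *Grin1*, *Grin2b* and *Gria3* passed the threshold as higher, 3 of 6 genes beside 9.61% of all genes. In either direction 41.0% of all genes passed and as lower 31.4%, and none of the 6 was lower. The groups did not overlap for these 3 genes and *Camk2b*, beside 48.2% of all genes. *Gria3* had a log2 difference of 1.80 (standard error 0.19) and *Grin2b* of 0.93 (standard error 0.283). The median of the 6 genes was 0.89, where that of all genes was -0.22. All genes split into 74 higher and 242 lower, and into 311 and 139 with median centring. The 3 comparisons share their samples in pairs and are not independent of each other.

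**Figure D2:**
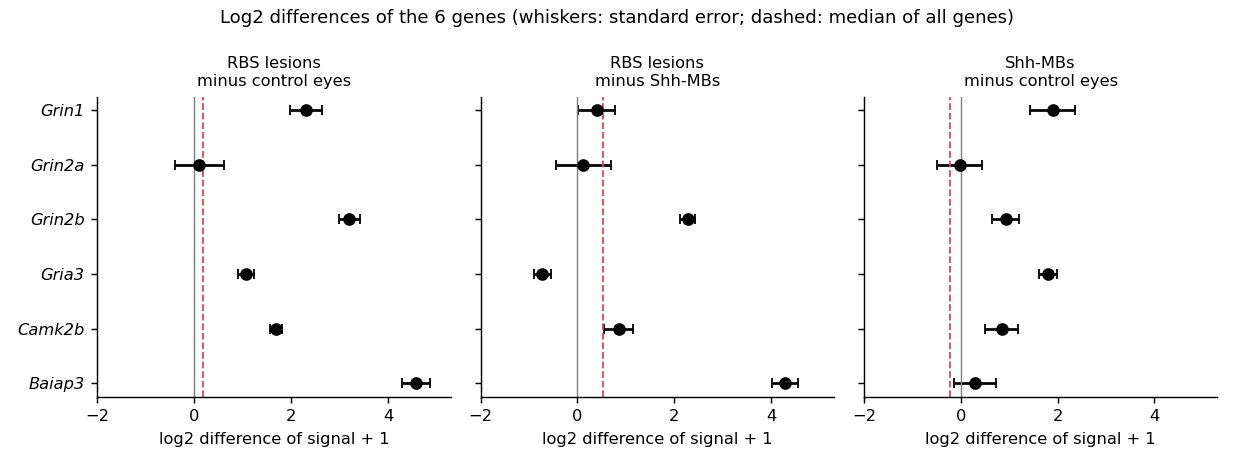
Log2 differences of signal plus 1 for the 6 genes in the 3 comparisons, with standard errors from limma as whiskers and the median of all 770 genes as a dashed line. *Gria3* is to the right of 0 against control eyes in both lesion types and to the left of 0 (-0.73) for *RBS* lesions minus Shh-MBs.

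Ratios of 2 genes in the same sample are not changed by the factor with which a sample was scaled. On the log2 scale, *Grin2b* over *Gria3* lay between -0.04 and 0.93 in *RBS* lesions, between -2.72 and -1.26 in control eyes and between -2.88 and -2.13 in Shh-MBs. *RBS* lesions were thus apart from both other groups, which overlapped. The group means differed by 2.17 (4.50-fold) between *RBS* lesions and control eyes and by 3.03 (8.14-fold) between *RBS* lesions and Shh-MBs. The ratio of *Grin2b* over *Camk2b* was likewise highest in *RBS* lesions without overlap, with a mean of -0.42 ± 0.106 (SD, *n* = 5) in *RBS* lesions, -1.97 ± 0.347 (SD, *n* = 4) in control eyes and -1.86 ± 0.734 (SD, *n* = 3) in Shh-MBs. *Grin2b* over *Grin1*, the ratio of the NMDA receptor subunits, was higher in each *RBS* lesion than in each Shh-MB, with a difference of 1.89 between the means. Between *RBS* lesions and control eyes this ratio overlapped. *Camk2b* over *Grin1* overlapped between *RBS* lesions and both other groups. *Camk2b* over *Gria3* was 0.54 to 1.23 in *RBS* lesions, at most 0.52 in control eyes and at most -0.17 in Shh-MBs. *Gria3* over *Grin1* was lower in each *RBS* lesion than in each sample of both other groups, by 1.36 on average against control eyes and 1.14 against Shh-MBs. It rests on the few counts of *Grin1* in control eyes. The probes of 2 genes can differ in efficiency, so a ratio was compared between groups and is not a ratio of transcript numbers.

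**Figure D3:**
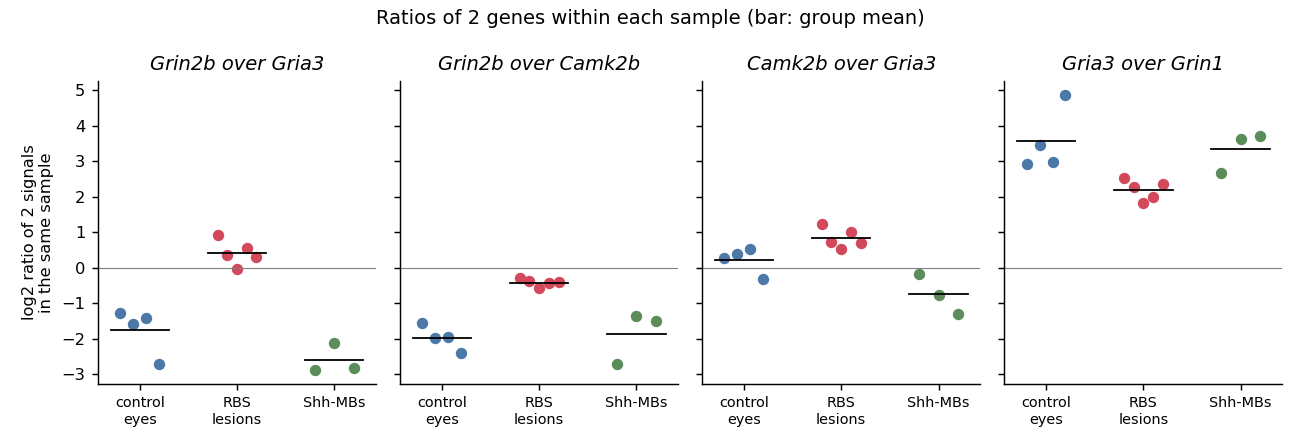
Log2 ratios of *Grin2b* over *Gria3*, *Grin2b* over *Camk2b*, *Camk2b* over *Gria3* and *Gria3* over *Grin1* within each of 12 samples, with group means as bars. *RBS* lesions lie above both other groups in the first 3 panels and below them in the fourth. In the third panel the gap to control eyes is narrow (0.54 against 0.52). *Grin2b* over *Grin1* and *Camk2b* over *Grin1*, which overlap between *RBS* lesions and control eyes, are not plotted.

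Genes with the most similar profiles were sought among 703 genes that were above the lowest value in at least 6 of the 12 samples. The measure was the root mean square difference of log2 profiles over the 12 samples, each centred on its mean. *Grin2b* was nearest to *Shc3* (0.47), an adaptor protein of neurons, and to *Ppp2r2b* (0.49), a regulatory subunit of protein phosphatase 2A. *Grin1* was nearest to *Plcb1* (0.52) and *Mapk10* (0.54), *Camk2b* to *Them4* (0.33) and *Mapk10* (0.33), and *Gria3* to *Pdgfa* (0.28) and *Fut8* (0.33). *Mapk10*, a stress-activated kinase of neurons, had 271 ± 46.4 (SD, *n* = 4) in control eyes, 580 ± 98.9 (SD, *n* = 3) in Shh-MBs and 1263 ± 136 (SD, *n* = 5) in *RBS* lesions. *Baiap3* had no near neighbor, with 0.79 to *Wnt3* and 0.84 to *Id4*, and *Grin2a* was no closer than 0.63 to *Fancg* and 0.64 to *Kmt2c*. Among the 6 genes, *Grin1* and *Camk2b* were closest to each other (0.56) and *Grin2a* and *Baiap3* farthest apart (2.28). The 12 samples fall into 3 groups, which these profiles share, and the neighbors of *Grin1*, *Grin2a*, *Gria3* and *Camk2b* were partly or wholly other genes with quantile normalization.

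Of a list of 55 genes for calcium and kinase signaling behind glutamate receptors, 28 are on the panel, and most had more signal in *RBS* lesions than in control eyes. The count was 24 higher and 1 lower (adjusted *p* under 0.05, limma), with a median log2 difference of 0.52. Over all genes 33.0% were higher and 18.2% lower, with a median of 0.17. The 3 largest rises without overlap were *Plcb1*, *Rasgrf2* and *Prkca*. *Plcb1*, a phospholipase C that acts behind Gq-coupled receptors, rose from 59.8 ± 12.2 (SD, *n* = 4) in control eyes to 317 ± 65.8 (SD, *n* = 5) in *RBS* lesions (log2 difference 2.39, standard error 0.197, adjusted *p* = 2.02e-05, limma). *Rasgrf2*, a Ras exchange factor activated by calcium, rose by 1.68 (adjusted *p* = 2.81e-05, limma) and *Prkca*, protein kinase C alpha, by 1.48 (adjusted *p* = 3.12e-06, limma). The gene that fell was *Ppp3ca*, a catalytic subunit of calcineurin, with a log2 difference of -0.26 (named after its value was seen). After median centring 14 rose and 1 fell, and the median was 0.34.

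Of 26 genes of voltage-gated calcium channels, 15 are on the panel. Against control eyes 9 of them passed in *RBS* lesions, all as higher (limma), beside the 33.0% of all genes. With median centring, quantile normalization or totals as the scale 9 channel genes passed as well, all as higher. *Cacna1e*, the pore of R-type channels, was 125 ± 22.2 (SD, *n* = 5) against 5.39 ± 1.57 (SD, *n* = 4). *Cacna2d2*, an auxiliary subunit, rose by 1.65 (adjusted *p* = 6.97e-05, limma) and *Cacnb4*, another auxiliary subunit, by 1.61 (adjusted *p* = 0.000258, limma). *Cacna2d2* did not pass with all 12 samples in 1 fit (adjusted *p* = 0.0778, limma).

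**Figure D4:**
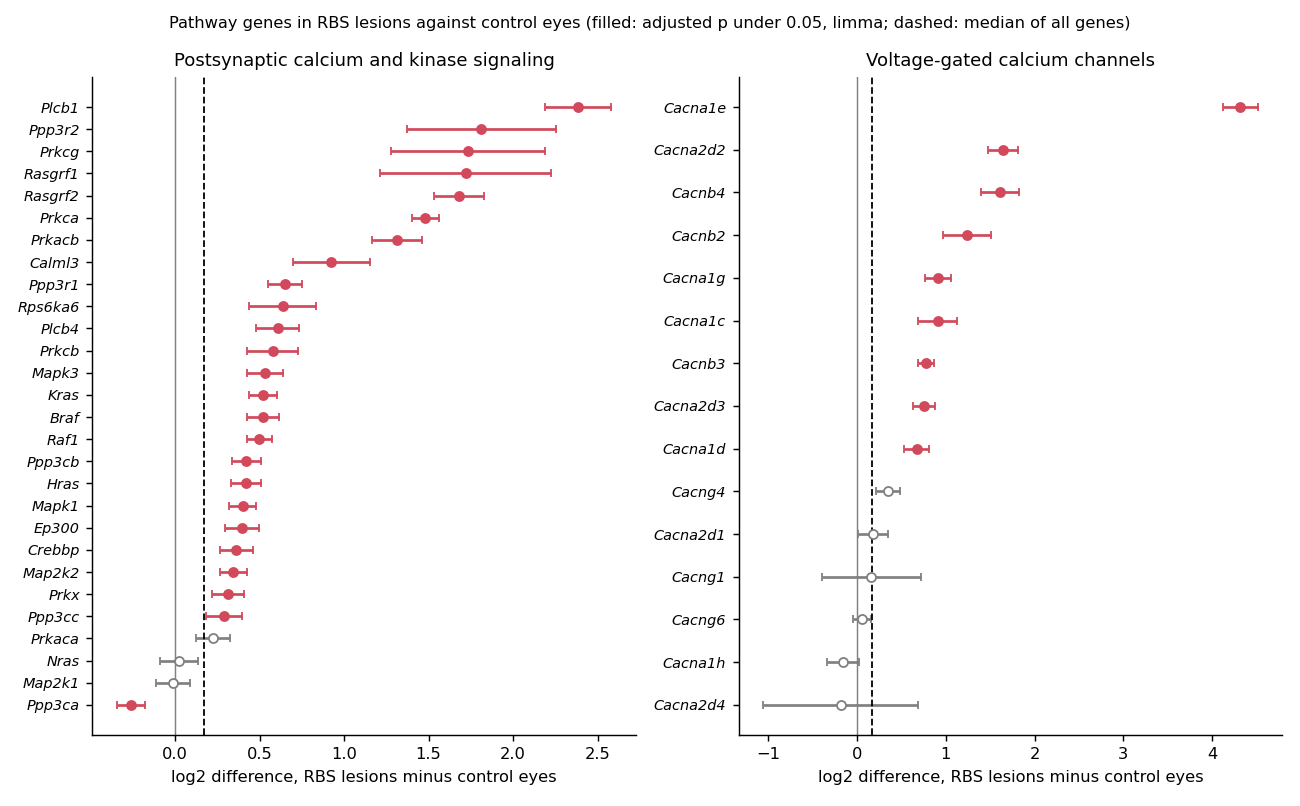
Log2 differences (*RBS* lesions minus control eyes) of 28 genes of postsynaptic calcium and kinase signaling and 15 genes of voltage-gated calcium channels, with standard errors as whiskers. Filled points passed an adjusted *p* of 0.05 in limma, the dashed line is the median of all 770 genes (0.17), and 24 signaling genes and 9 channel genes are filled to its right.

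Against Shh-MBs, 17 of the 28 signaling genes were higher and 2 lower in *RBS* lesions (limma), with a median log2 difference of 0.68, near those of all genes (48.1% higher, 12.7% lower, median 0.53). This split depends on the scaling, since 4 were higher and 7 lower with median centring. *Calml3*, a calmodulin-like protein of epithelia, had 358 ± 83.4 (SD, *n* = 5) in *RBS* lesions, while each Shh-MB had its lowest value there. *Rasgrf2* was likewise without signal above background in Shh-MB samples, in 2 of 3 of them. *Prkca* was 309 ± 14.7 (SD, *n* = 5) in *RBS* lesions against 151.4, 40.8 and 54.1 in Shh-MBs 1 to 3 (log2 difference 2.14, adjusted *p* = 0.00126, limma, and 0.104 in the methods' test with Benjamini-Hochberg adjustment). Of the 15 channel genes, 9 were higher and 1 lower in *RBS* lesions than in Shh-MBs, beside the same shares of all genes, and 5 higher and 2 lower with median centring. *Cacna2d2* was 447 ± 67.4 (SD, *n* = 5) in *RBS* lesions, and among Shh-MBs it was 314.9 in Shh-MB 1 and 12.7 and 23.5 in the other two (log2 difference 3.23, adjusted *p* = 0.0136, limma). *Cacna1h*, the pore of a T-type channel, had a log2 difference of 2.81 (adjusted *p* = 0.00138, limma), and *Cacng1* had no signal above background in any of the 3 Shh-MBs. In *RBS* lesions *Cacng1* averaged 14.1 ± 7.10 (SD, *n* = 5). Its log2 difference was 2.74, and 0.044 with values under 20 set to 20 (adjusted *p* = 0.627, limma). *Cacna1h* did not pass with quantile normalization (adjusted *p* = 0.0891, limma), nor did *Cacna2d2* with the replicate number as a block (adjusted *p* = 0.0671, limma). In the methods' test with Benjamini-Hochberg adjustment neither passed (adjusted *p* of 0.0962 for *Cacna1h* and 0.206 for *Cacna2d2*).

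Between Shh-MBs and control eyes, 4 of the 28 signaling genes were higher and 8 lower in Shh-MBs (limma), beside 9.61% and 31.4% of all genes, and 14 higher and 2 lower with median centring. *Calml3* fell from 189 ± 51.9 (SD, *n* = 4) in control eyes to the lowest value in each Shh-MB (adjusted *p* = 4.03e-06, limma), which gives no fold. *Rasgrf2* fell from 46.2 ± 6.34 (SD, *n* = 4) to 3.74 ± 4.75 (SD, *n* = 3), with 2 of 3 Shh-MBs at the lowest value (adjusted *p* = 0.00225, limma, and 0.0986 in the methods' test with Benjamini-Hochberg adjustment). *Prkcb*, protein kinase C beta, rose by 2.38 (standard error 0.0945, adjusted *p* = 7.09e-06, limma), from 229 ± 15.3 (SD, *n* = 4) in control eyes to 1194 ± 34.6 (SD, *n* = 3) in Shh-MBs. Of the channel genes 2 were higher and 3 lower, beside the same shares of all genes. The balance turned to 5 higher and 3 lower with median centring and 4 higher and 2 lower with quantile normalization. *Cacng1*, without signal above background in Shh-MBs, had 13.9 ± 9.37 (SD, *n* = 4) in control eyes (adjusted *p* = 0.0131, limma, and 0.0536 with the replicate number as a block). With values under 20 set to 20 the log2 difference of *Cacng1* was -0.057 (adjusted *p* = 0.497, limma). It did not pass in the methods' test with Benjamini-Hochberg adjustment either (adjusted *p* = 0.0627). *Cacna1e* rose by 2.91 (adjusted *p* = 0.000148, limma), and *Cacna1h* had a log2 difference of -2.96 (adjusted *p* = 0.00527, limma; 0.0998 with quantile normalization and 0.118 in the methods' test with Benjamini-Hochberg adjustment).

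Markers of cell types moved with the groups too, and their part in the levels of the 6 genes was not tested. In bulk tissue, fewer cells of a type and less RNA per cell cannot be told apart. Of 20 neuron markers 5 are on the panel, and their summed signal was 2308 to 3076 in *RBS* lesions, 939 to 1007 in control eyes and 719 to 1087 in Shh-MBs. *Mapt*, the microtubule protein tau, made up most of this sum in eyes and rose in *RBS* lesions against control eyes by 1.70 (adjusted *p* = 9.12e-06, limma), *Ntrk2* rose by 1.11 (adjusted *p* = 0.000191, limma), and *Bdnf* fell by 0.55 (adjusted *p* = 0.0063, limma). *Mapt* fell to 306 ± 63.9 (SD, *n* = 3) in Shh-MBs (log2 difference to control eyes -1.02, adjusted *p* = 0.00317, limma, and 0.125 with median centring). In that comparison *Bdnf* also fell, by 1.54 (adjusted *p* = 0.00313, limma, and 0.29 with quantile normalization), and *Ntrk2* rose by 0.99 (adjusted *p* = 0.00914, limma). None of these genes passed there in the methods' test with Benjamini-Hochberg adjustment (adjusted *p* of 0.0555 for *Mapt*, 0.0977 for *Bdnf* and 0.0796 for *Ntrk2*). For 8 of 14 mesenchyme markers the sum was 25645 to 57961 in control eyes, 1478 to 2102 in Shh-MBs and 19909 to 36506 in *RBS* lesions, and 3 of the 8, among them *Thbs1* and *Col1a2*, passed as lower in *RBS* lesions against control eyes, beside 18.2% of all genes. This count was 5 with median centring, 2 with quantile normalization and 1 with the replicate number as a block. *Col1a2* did not pass with quantile normalization (adjusted *p* = 0.052, limma) or with the replicate number as a block (adjusted *p* = 0.0863, limma). Nor did *Col1a2* pass in the methods' test with Benjamini-Hochberg adjustment (adjusted *p* = 0.0522). For 6 of 12 blood and immune markers the sum was 90.6 to 135 in control eyes, 116 to 235 in Shh-MBs and 177 to 234 in *RBS* lesions. Of these 6, 3 passed as higher in *RBS* lesions against control eyes, *Cd14*, *Il7r* and *Csf1r*, beside 33.0% of all genes. *Cd14* did not pass with quantile normalization (adjusted *p* = 0.0561, limma) or with values under 20 set to 20 (adjusted *p* = 0.292, limma). *Il7r* was without signal above background in 3 of 4 control eyes and below 20 in all eyes, so that no difference remained with that floor. *Pdgfra*, the only 1 of 10 glia markers present, had 349 ± 120 (SD, *n* = 4) in control eyes, 982 ± 184 (SD, *n* = 3) in Shh-MBs and 483 ± 40.1 (SD, *n* = 5) in *RBS* lesions. It is also counted among the 8 mesenchyme markers, where it contributed 769.5 to 1101 to the sums of Shh-MBs and was the one marker higher in Shh-MBs than in control eyes (adjusted *p* = 0.00505, limma), while the other 7 were lower.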

How the data were processed

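RNA of fresh frozen tissue was measured on the nCounter Mouse PanCancer Pathways panel in 12 samples. The authors normalized the counts in nSolver with its Advanced Analysis module, and the deposited values are a linear signal, not yet log-transformed. A background level had been subtracted and each sample multiplied by one factor, as the even steps between low values show. Dividing the signal by this step gave counts above background. The background itself is not given in the sources used here, so no counting interval was computed.

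Values were used as log2 of the signal plus 1, without a filter. Groups were compared in pairs by limma (version 3.58.1, R 4.3.3) with lmFit and eBayes, two-sided. P-values were adjusted after Benjamini and Hochberg across the 770 genes, with 0.05 as threshold, and the fit was tested on simulated data. Python 3.11.15 and matplotlib 3.10.9 made the plots. The methods name a Welch-corrected test with a Bonferroni adjustment, which was run as an alternative without its permutations. Other alternatives were 3 scalings, a pseudocount of 5, values under 20 set to 20, a filter, other fits and leaving out each sample in turn.

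The 6 genes and all lists were chosen with earlier results of these data known, and the lists are from general knowledge. Named list genes are all of those on the panel for lists with 4 or fewer, otherwise up to 3 with the largest log2 difference past the threshold without overlap. All 6 symbols matched the RefSeq gene table and 3 the promoter table. Ratios of genes within a sample were added after the data were seen. Each sample is from 1 animal.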

Additional observations from a re-analysis of the deposited data

Results flagged for a closer look

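*Baiap3* in control 1, with a signal of 4.05, stood apart from the other 3 control eyes, which were all at the lowest value of their samples. Its distance to the next control eye was 0.984 of the whole range of the group. With the other 3 samples at their lowest value any sample with signal gives such a share, so the rate of about 1 in 20 groups that chance marks otherwise does not hold here, and 4.05 corresponds to 3.45 counts above background. It was the only one marked among 12 sets of a gene and a group.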

How the results depend on the processing

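The step-down Bonferroni adjustment of the methods' test left 72, 80 and 36 genes in *RBS* lesions against control eyes, *RBS* lesions against Shh-MBs and Shh-MBs against control eyes, where limma called 394, 468 and 316. Of the 6 genes it left 1, 0 and 0 (5, 4 and 3 by limma), with 5, 3 and 3 at an unadjusted *p* under 0.05 in that test. It left 5, 2 and 2 signaling genes (25, 19 and 12 by limma) and 2, 1 and 1 channel genes (9, 10 and 5). With Benjamini-Hochberg the methods' test called 4 channel genes in *RBS* lesions against Shh-MBs, and 1 of the 6 genes, 6 signaling genes and 3 channel genes in Shh-MBs against control eyes. Median centring gave 15 and 11 signaling genes in the first 2 comparisons and 8 channel genes in the third. Quantile normalization gave 12 signaling and 4 channel genes in *RBS* lesions against Shh-MBs. With values under 20 set to 20, 1 of the 6 genes passed in Shh-MBs against control eyes, and the median of the 6 genes in *RBS* lesions against control eyes was 1.36 (2.00 otherwise). The median of the 6 genes in *RBS* lesions against Shh-MBs, 0.62, was -0.22 with median centring, -0.29 after quantile normalization and 0.24 when samples were scaled to totals that left out the top 3 genes. It was 0.37 without Shh-MB 3 and 1.05 without Shh-MB 1. In Shh-MBs against control eyes it was 0.89, and 1.55 and 1.54 with the first 2 of these scalings. Leaving out each sample in turn gave 5 to 10 channel genes there, 10 without Shh-MB 1. The cause of these changes was not tested. With the replicate number as a block, which drops unpaired samples, 15 and 7 signaling genes passed in the comparisons with control eyes and 2 of the 6 genes in *RBS* lesions against Shh-MBs. The numbers pair no animals, and same-numbered samples correlated between -0.15 and 0.19 in their deviations. Few counts limit *Grin2a* in all groups, *Baiap3* outside *RBS* lesions and *Grin1* in control eyes.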
